A study of Rattus norvegicus with 12 samples.

Results

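The enzymes that build fatty acids, triglycerides and cholesterol were followed across the rat pancreas, from healthy and diabetic animals with and without oral sodium tungstate. The group was given as 47 genes, and 46 of them were measured on the Affymetrix RAE230-A array, each by the probe set with the highest mean over the 12 arrays, out of 15866 probe sets tested. Hmgcs1, the cytosolic HMG-CoA synthase, was not analysed here. By role, 17 of the measured genes belonged to the fatty acid branch, 7 to the triglyceride branch and 16 to the sterol branch, and 2 esterify cholesterol. The last 4, called regulators here, are Srebf1, which encodes SREBP-1, and Insig1, Insig2 and Scap, which control the SREBP factors.

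All animals were adult male Wistar rats, and whole pancreas was used. Healthy untreated (HU) and diabetic untreated (DU) animals were kept for 5 to 6 weeks. Healthy treated (HT) and diabetic treated (DT) animals received sodium tungstate, per the labels at 0.7 g/L for the opening week and then at 2 g/L for 4 to 5 weeks. Diabetes in DU and DT animals was induced with streptozotocin (STZ), a toxin that enters and destroys beta cells. RNA of 3 rats was pooled on each of the 3 arrays per group, so the spread between arrays is a spread between pools and not between animals. Values are the deposited log2 intensities, and a gene is said to rise or fall only where the limma test of all 15866 probe sets gave a Benjamini-Hochberg adjusted p under 0.05. The arrays came from 3 chip lots and were scanned on 6 days, and no scan day held both DU and HU arrays.

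Fatty acid synthesis starts from cytosolic acetyl-CoA, which acetyl-CoA carboxylase and fatty acid synthase turn into palmitate. Elongases and desaturases then lengthen the chain and add double bonds, and acyltransferases join the acyl chains to glycerol. Sterol synthesis starts from the same acetyl-CoA and runs through mevalonate, farnesyl diphosphate and squalene to cholesterol. Both branches are driven by the SREBP transcription factors, which SCAP carries from the endoplasmic reticulum to the Golgi and which the INSIG proteins hold back when sterols are plentiful. In the pancreas the acinar cells that make digestive enzymes form the bulk of the tissue, with islets, ducts, vessels and fat between them. Insulin raises the transcription of many lipogenic genes in liver and fat.

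The promoters of 6 members called in at least 1 comparison are shown. They are 5 of the 7 genes that were lower in DU animals, and Insig1, which was higher in DT than in HU animals. Whether these members share a regulator was not tested. Each window runs from 250 bases before to 50 bases after the start of the gene, 5′ to 3′, taken from RefSeq on the build GRCr8. Capitals mark the CCAAT box (CCAAT), the GC box (GGGCGG) and the E-box (CACGTG) on either strand.
Scd, chr1:253231682-253231981, minus strand: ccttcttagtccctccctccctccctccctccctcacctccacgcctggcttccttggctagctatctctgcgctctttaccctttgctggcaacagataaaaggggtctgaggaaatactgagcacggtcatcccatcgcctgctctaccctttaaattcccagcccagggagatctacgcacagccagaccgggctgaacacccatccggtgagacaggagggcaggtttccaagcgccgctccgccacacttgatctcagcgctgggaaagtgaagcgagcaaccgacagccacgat
Fads1, chr1:216252442-216252741, plus strand: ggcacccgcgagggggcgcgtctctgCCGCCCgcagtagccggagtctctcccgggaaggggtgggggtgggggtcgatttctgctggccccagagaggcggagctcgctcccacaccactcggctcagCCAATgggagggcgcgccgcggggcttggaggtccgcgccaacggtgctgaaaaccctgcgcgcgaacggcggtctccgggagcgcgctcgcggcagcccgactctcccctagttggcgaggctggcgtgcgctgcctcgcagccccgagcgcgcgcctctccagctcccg
Fads2, chr1:216171984-216172283, minus strand: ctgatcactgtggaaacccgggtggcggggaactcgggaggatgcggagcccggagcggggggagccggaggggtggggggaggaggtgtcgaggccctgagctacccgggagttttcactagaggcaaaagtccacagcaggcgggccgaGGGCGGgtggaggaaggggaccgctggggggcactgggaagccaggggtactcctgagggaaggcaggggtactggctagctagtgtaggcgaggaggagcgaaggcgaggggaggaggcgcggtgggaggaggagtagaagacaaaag
Thrsp, chr1:161138915-161139214, minus strand: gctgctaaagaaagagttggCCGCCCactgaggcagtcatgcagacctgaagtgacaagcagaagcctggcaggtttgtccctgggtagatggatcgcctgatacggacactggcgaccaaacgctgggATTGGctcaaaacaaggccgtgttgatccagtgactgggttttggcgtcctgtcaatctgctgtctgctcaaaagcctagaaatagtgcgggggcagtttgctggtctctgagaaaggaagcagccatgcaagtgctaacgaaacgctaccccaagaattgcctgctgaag
Lcat, chr19:50748015-50748314, minus strand: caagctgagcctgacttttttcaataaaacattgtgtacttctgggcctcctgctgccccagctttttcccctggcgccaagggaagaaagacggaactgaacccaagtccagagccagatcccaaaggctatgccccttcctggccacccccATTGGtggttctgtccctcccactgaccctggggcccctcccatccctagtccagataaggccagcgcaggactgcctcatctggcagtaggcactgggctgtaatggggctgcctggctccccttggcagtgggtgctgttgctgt
Insig1, chr4:8057720-8058019, minus strand: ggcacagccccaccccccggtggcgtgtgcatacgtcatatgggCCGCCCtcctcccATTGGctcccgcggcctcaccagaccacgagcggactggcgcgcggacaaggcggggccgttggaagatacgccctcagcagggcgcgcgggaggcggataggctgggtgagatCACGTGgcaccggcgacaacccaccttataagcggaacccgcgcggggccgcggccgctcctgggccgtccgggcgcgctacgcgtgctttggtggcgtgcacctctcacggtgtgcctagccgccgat
Fads1 and Fads2 lay on opposite strands of chromosome 1, with 0 annotated protein-coding genes between their starts. Of the 46 members, 36 had 1 promoter window in the RefSeq table. The CCAAT box was present in 25 of these 36 windows (69.4%), compared to 37.5% of all 33469 windows. By branch it was present in 8 of 14 windows of the fatty acid branch, 3 of 4 of the triglyceride branch and 10 of 13 of the sterol branch. The GC box was present in 24 of 36 windows, compared to 33.1% of all windows, and in 11 of 13 of the sterol branch. The E-box was present in 4 of 36 windows, compared to 6.42% of all windows. A sterol regulatory element of the letters TCACNCCAC was present in 0 of 36 windows, compared to 1.12% of all windows, which says only that these letters were not in these windows. The Scd window held none of the 4 motifs. The window of Scd2, which is not shown, held 2 CCAAT boxes and none of the other motifs. The 33469 windows were not limited to genes with 1 window or to genes on the array, as the members were. The shares therefore compare unlike sets. These matches are descriptions of sequence, not of binding. Acaca, Fasn, Elovl6, Dgat1, Dgat2, Lpl, Pmvk, Fdft1 and Sqle had no entry in the table, and Srebf1 had several.

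DU vs. HU asked what STZ diabetes alone did to these genes. Of the 46 members 7 fell and 0 rose. The genes that fell were the desaturases Scd, Scd2, Fads1 and Fads2, then Thrsp, Dgat2 and Lcat, by 1.40- to 4.00-fold. They made up 15.2% of the members, compared to 1.73% of all probe sets that were lower and 1.47% that were higher at the same threshold. By branch, 5 of 17 genes of the fatty acid branch fell, as did 1 of 7 of the triglyceride branch, 0 of 16 of the sterol branch, 1 of 2 esterification genes and 0 of 4 regulators. At an unadjusted p under 0.05 the sterol branch had 4 genes higher and 0 lower, and the fatty acid branch 2 higher and 6 lower. These are 25% of the sterol branch higher and 35.3% of the fatty acid branch lower, compared to 8.75% of all probe sets higher and 11.5% lower. In RNA of whole pancreas fewer cells of a type and less RNA per cell cannot be told apart, and the markers of the cell types are given after the comparisons.

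**Figure D1:**
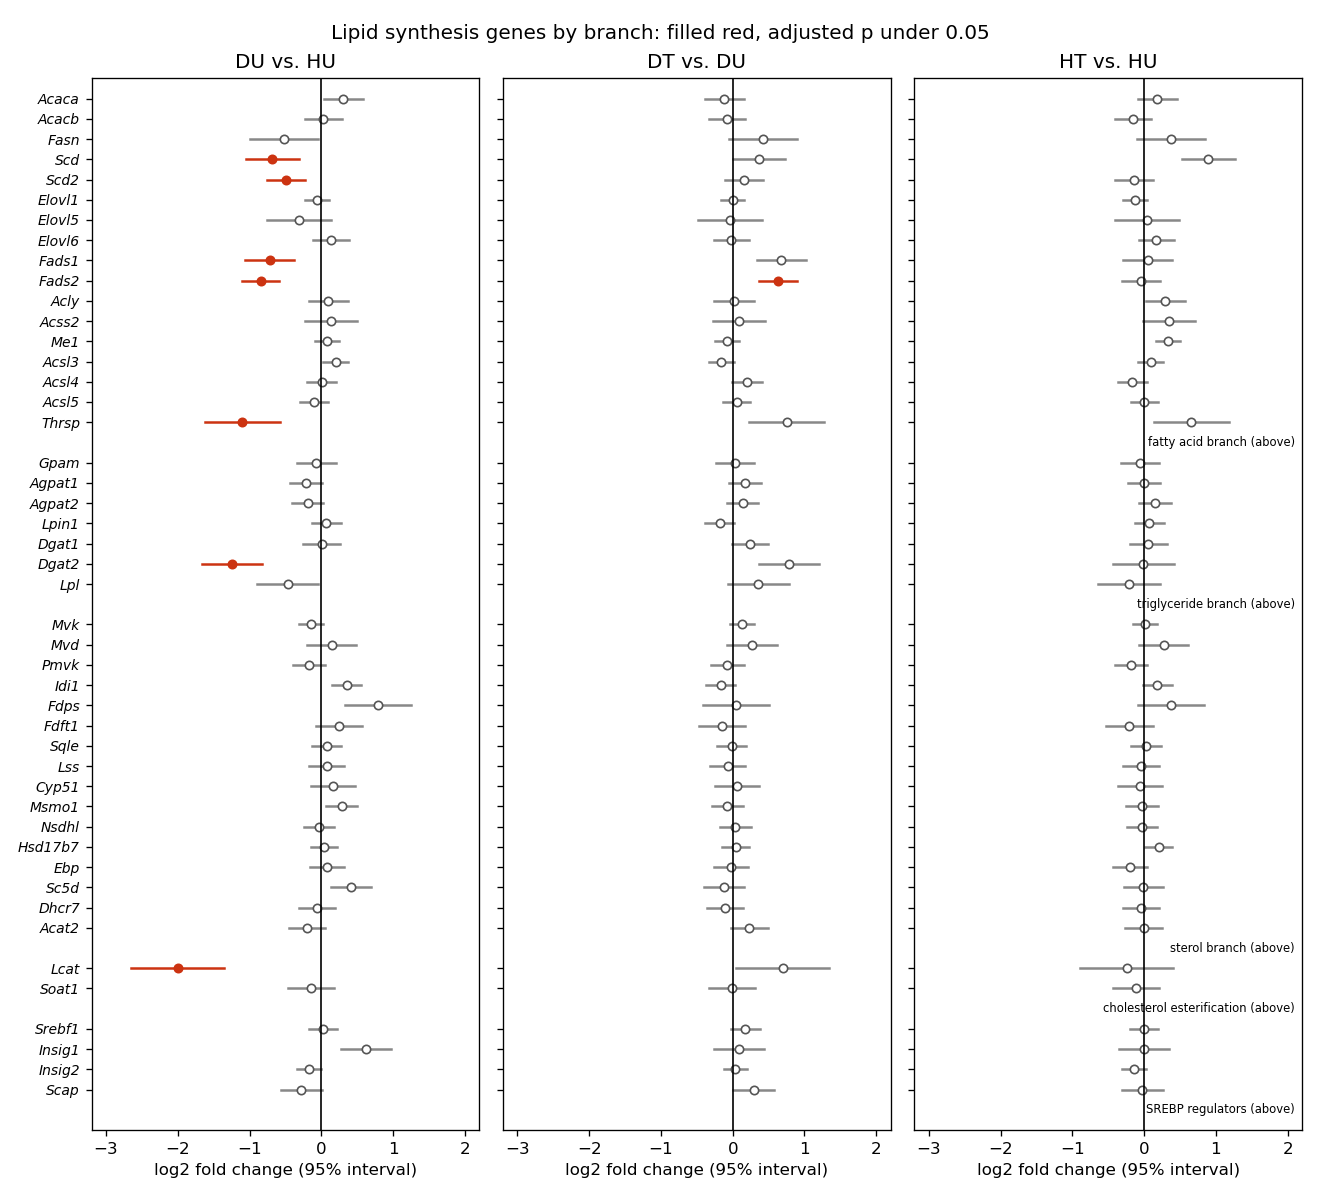
Log2 fold change of each of the 46 genes (points) with its 95% interval (lines) in DU vs. HU, DT vs. DU and HT vs. HU, ordered by branch; filled red points have an adjusted p under 0.05. Red points in DU vs. HU lie left of 0 and are absent from the sterol branch, and Fads2 is the red point in DT vs. DU.

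All 4 fatty acid desaturases among the members fell in DU animals. Fads3, of the wider list of the pathway given below, had a mean of 5.70 in HU and 5.91 in DU and was not called. Fads2, which carries out the opening desaturation of linoleic and linolenic acid, measured 7.75, 7.57 and 7.99 in HU and 6.81, 7.00 and 6.97 in DU. Every DU array lay below every HU array, and the difference was -0.85 ± 0.12 (log2, SE, 1.80-fold lower, adjusted p = 0.00158). Fads1, its neighbour on chromosome 1 and the later desaturase of the same route to arachidonic acid, measured 8.57, 8.42 and 9.05 in HU and 8.01, 8.04 and 7.82 in DU. These arrays did not overlap either, and Fads1 fell by 0.72 (SE 0.16, adjusted p = 0.0276). Scd, the desaturase that makes oleic acid from stearic acid, measured 8.08, 7.73 and 8.12 in HU and 7.48, 7.16 and 7.24 in DU. HU2 stood lowest of the HU arrays for Scd, and still above all DU arrays. The fall was 0.68 on the log2 scale (interval of the difference, -1.05 to -0.32), with an adjusted p of 0.0457. Its paralog Scd2 measured 7.49, 7.52 and 7.13 in HU and 6.91, 6.85 and 6.90 in DU. Its DU arrays lay close together and below HU, with a difference of -0.49 ± 0.12 and an adjusted p of 0.0459. Scd and Scd2 are close in sequence, and signal shared between their probe sets was not tested.

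Thrsp, a nuclear protein tied to lipogenesis and regulated by carbohydrate and thyroid hormone, had the largest fall of the fatty acid branch. It measured 8.15, 7.38 and 8.46 in HU and 7.00, 7.05 and 6.64 in DU, which is 2.14-fold lower (-1.10 ± 0.24; adjusted p = 0.0268). HU2 was again the lowest HU array, at 7.38. The enzymes at the head of the branch did not pass. Fasn, fatty acid synthase, measured 8.70, 8.01 and 9.05 in HU and 8.15, 8.09 and 7.97 in DU, so that HU2 lay among the DU arrays, and the difference was -0.52 (interval -0.99 to -0.04; adjusted p = 0.210). Without HU2 it was -0.80 with an adjusted p of 0.0435. Acaca, the carboxylase that makes malonyl-CoA, measured 8.04, 7.88 and 8.25 in HU and 8.37, 8.21 and 8.50 in DU, a difference of 0.31 with overlapping arrays (adjusted p = 0.195). Acly, ATP citrate lyase, and Acss2, which activates acetate, differed by 0.10 (interval -0.18 to 0.37) and 0.13 (interval -0.23 to 0.49). The 3 elongases, Elovl1, Elovl5 and Elovl6, lay between -0.31 and 0.14, with 0 called, and the 3 acyl-CoA synthetases lay between -0.10 and 0.20. The adjusted p-values of Elovl5 and Elovl6 were 0.427 and 0.537.

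In the triglyceride branch Dgat2, the diacylglycerol acyltransferase that adds the last acyl chain, fell 2.37-fold. It measured 8.54, 8.32 and 8.82 in HU and 7.31, 7.46 and 7.17 in DU with the groups well apart, and the difference was -1.24 ± 0.19 (adjusted p = 0.00297). Dgat1, which catalyses the same reaction with an unrelated sequence, differed by 0.00 (interval -0.25 to 0.26; adjusted p = 0.984). Gpam, the mitochondrial acyltransferase that starts glycerolipid synthesis, measured 6.34, 6.52 and 6.36 in HU and 6.25, 6.42 and 6.35 in DU. These arrays overlapped, and the difference was -0.07 (interval -0.34 to 0.20). Lpl, lipoprotein lipase, differed by -0.47 with arrays that did not overlap and an adjusted p of 0.205. The 6 genes of the branch other than Dgat2 lay between -0.47 and 0.07.

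Lcat, a secreted enzyme that esterifies the cholesterol of lipoproteins, had the largest difference of all members. It measured 7.93, 8.98 and 8.76 in HU and 6.23, 6.49 and 6.95 in DU. The groups did not overlap, and the gene was 4.00-fold lower in DU (-2.00 ± 0.30; adjusted p = 0.00228). Soat1, which esterifies cholesterol inside the cell, differed by -0.15 (interval -0.47 to 0.18).

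**Figure D2:**
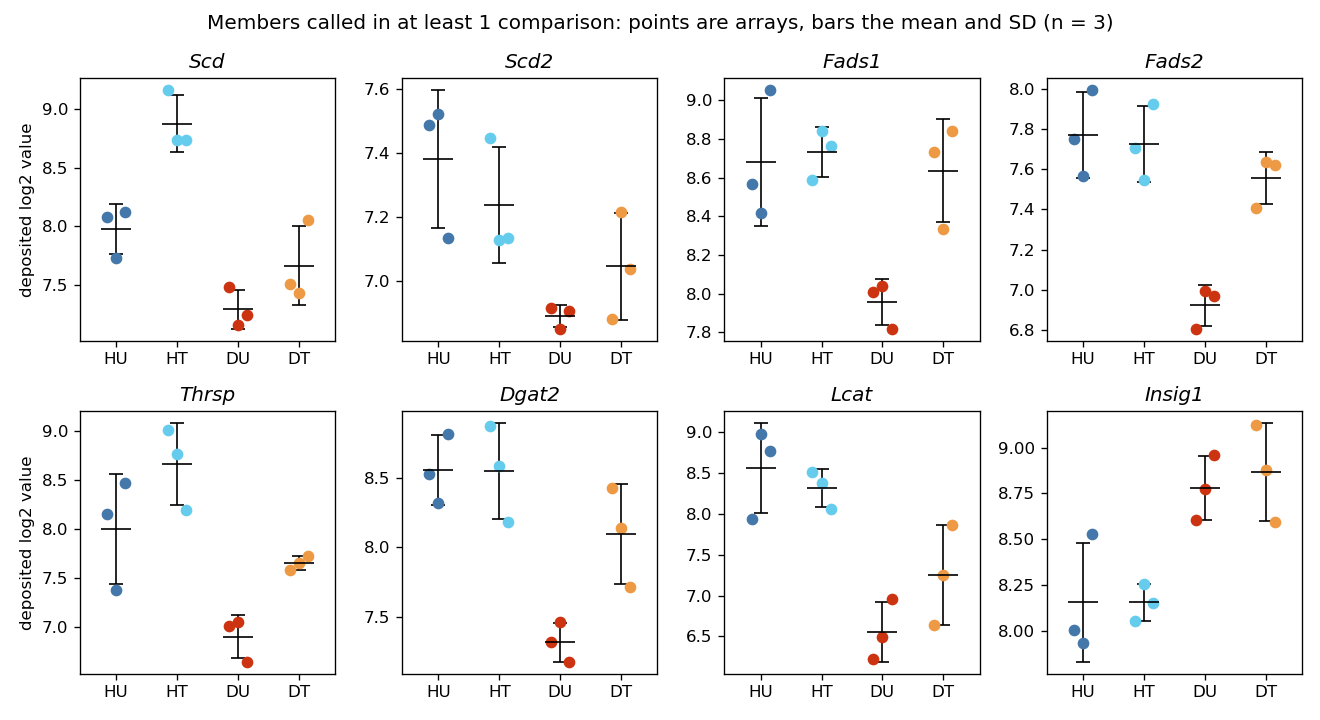
Deposited log2 values of the 8 members called in at least 1 comparison, by group; points are arrays (pools of 3 rats), and bars give the mean and SD (n = 3). The 3 DU arrays lie below the 3 HU arrays for the 7 genes that fell, and above them for Insig1, and the vertical axes differ between genes and do not start at 0.

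No gene of the sterol branch passed in DU vs. HU, and its median lay above 0. In DU vs. HU 11 of its 16 genes had a difference above 0 (68.8%), compared to 45.1% of all probe sets, and their median was 0.08 compared to -0.02 for all probe sets. The median was -0.06 for the fatty acid branch and -0.19 for the triglyceride branch. Leaving out 1 array moved it from 0.04 (without HU2) to 0.12 (without DU1) in the sterol branch, from -0.11 (without HU2) to -0.04 (without HU3) in the fatty acid branch and from -0.21 to -0.12 (without HU3) in the triglyceride branch. Without dim probe sets the fatty acid median was -0.21. Chip lot 1 was the only lot with both groups (HU3, DU1 and DU2). Within it the median was 0.02 in the sterol branch, -0.18 in the fatty acid branch and -0.28 in the triglyceride branch. Fdps, farnesyl diphosphate synthase, measured 8.76, 8.75 and 8.90 in HU and 9.55, 9.45 and 9.77 in DU, a difference of 0.78 with an adjusted p of 0.0652. HT3 stood at 9.77 for Fdps while HT1 and HT2 measured 8.74 and 9.03, and without HT3 the adjusted p was 0.0102. HT3 is not part of DU vs. HU and enters it only through the shared estimate of the spread. Idi1, the isomerase upstream of it, differed by 0.36 (adjusted p = 0.0563), and Sc5d, a late desaturase of the sterol ring, by 0.41 (adjusted p = 0.0961). The arrays of DU and HU did not overlap for these 3 genes, which had the largest differences of the branch. The share of all probe sets without overlap was not determined, and the other probe set of Sc5d overlapped (0.02). Sqle, squalene epoxidase, measured 6.12, 6.11 and 5.96 in HU and 5.95, 6.26 and 6.20 in DU, a difference of 0.07 with overlapping arrays (interval -0.13 to 0.28). Array by array, the median of the 16 genes relative to their HU means was 0.06, 0.11 and 0.09 in DU and 0.20, 0.09 and 0.05 in DT, compared to -0.01, -0.06 and 0.03 in HU. DU and DT arrays therefore lay above HU arrays in this median, a description to which no test was applied.

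Among the regulators, Srebf1, the gene of SREBP-1, measured 7.99, 7.77 and 8.07 in HU and 7.95, 8.06 and 7.90 in DU, so that no difference was detectable (0.03, interval -0.17 to 0.22). Insig1, which is itself a target of the SREBPs, measured 8.01, 7.94 and 8.53 in HU and 8.61, 8.78 and 8.96 in DU. All DU arrays were above all HU arrays, HU3 by the least, and the difference of 0.62 had an adjusted p of 0.0537. Without HU3 it was 0.81 with an adjusted p of 0.0124, and with scan day as a block it turned to -0.33 (adjusted p = 0.795). Insig2 differed by -0.17 (adjusted p = 0.243) and Scap by -0.28 (adjusted p = 0.256).

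The calls of DU vs. HU were unequal in how firmly they held. Fads2, Dgat2 and Lcat stayed called whichever of the 12 arrays was left out, with adjusted p-values up to 0.0127, 0.0172 and 0.0168, and they were the 3 members with a B-statistic above 0. Scd was lost without HU1, HU3, HT2, DU1, DU2, DU3 or DT1 (adjusted p up to 0.150) and with median centring (adjusted p = 0.0550), and Scd2 without HU1, HU2, HT2, DU1, DU2 or DU3 (up to 0.160). Fads1 and Thrsp were lost without HU1, HU3 or any of the DU arrays, with adjusted p up to 0.0854 and 0.0998. Within chip lot 1, the only lot with both groups (HU3, DU1 and DU2), the mean of DU minus HU3 was -1.09 for Fads2, -1.02 for Fads1, -0.80 for Scd, -0.25 for Scd2, -1.44 for Thrsp, -1.44 for Dgat2 and -2.40 for Lcat. The same difference was 0.60 for Fdps and 0.16 for Insig1. With chip lot as a block 4 members fell (Fads1, Fads2, Dgat2 and Lcat). With scan day as a block 0 of the 7 were called, with estimates of -1.38 for Fads2 (adjusted p = 0.127), -1.54 for Dgat2 (adjusted p = 0.148) and -1.23 for Lcat (adjusted p = 0.650). The estimates for Fads2 and Dgat2 were as large with this block as without it. Those of Lcat, Thrsp (-0.66) and Scd2 (-0.08) were smaller, and that of Scd turned to 0.15. Of the DU and HU arrays, only DU1 and HU3 shared a scan day with another group. The estimates with this block therefore set DU1 against HU3, linked through HT and DT arrays. Scan day and diabetes without tungstate cannot be told apart within a day.

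Several genes had more than 1 probe set, 15 of the 46 members with 33 probe sets in all. For Fasn the dimmer probe set fell by 0.78 (adjusted p = 0.0330), whereas the brighter one, used here, gave -0.52. For Thrsp the other probe sets gave -1.41 (adjusted p = 0.0151) and -0.43 (adjusted p = 0.238). For Scd2 they gave -0.83 (adjusted p = 0.137) and -0.02 (adjusted p = 0.910), so the fall of Scd2 rested on 1 of its 3 probe sets. The estimates had opposite signs for Acaca (0.31 and -0.26), Soat1 (-0.15 and 0.38) and Me1 (0.08 and -0.28). They did so with smaller values for Srebf1 (0.03 and -0.10) and for Fdft1 (0.25 and -0.01), Lss (0.07 and -0.07) and Hsd17b7 (0.04 and -0.06) of the sterol branch, which count among its genes above 0. The other probe set of Sc5d gave 0.02, compared to 0.41 for the one used. Which transcripts each probe set reads was not tested.

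**Figure D3:**
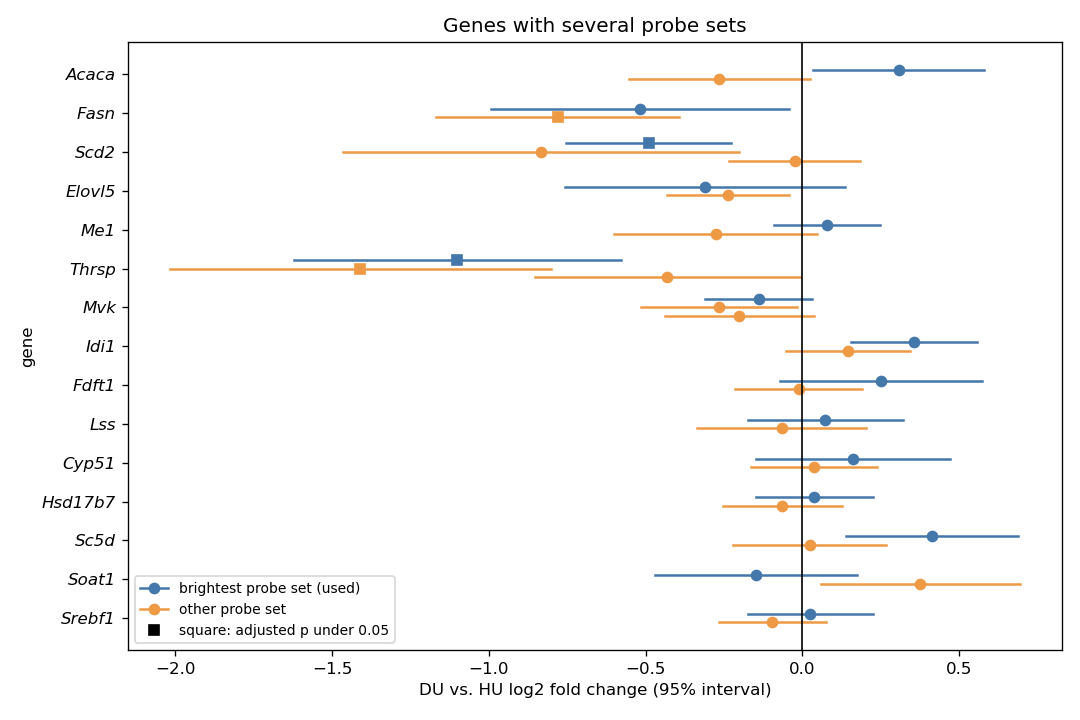
DU vs. HU log2 fold change with its 95% interval for every probe set of the 15 genes with several; blue marks the brightest probe set of each gene, orange the others, and squares an adjusted p under 0.05. The probe sets of Thrsp and Fasn lie left of 0, those of Scd2 spread from -0.83 to -0.02, and those of Acaca, Soat1, Me1, Srebf1, Fdft1, Lss and Hsd17b7 fall on both sides of 0.

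DT vs. DU asked what tungstate did in diabetic animals. Fads2 rose, and it was the 1 member called (2.17% of the members), compared to 0.655% of all probe sets higher and 0.460% lower. DT vs. DU shares the DU arrays with DU vs. HU, so a low DU value enters both, and the values of the 2 comparisons are given side by side without a test of their relation. At an unadjusted p under 0.05, 7 members were higher (15.2%) and 0 lower, compared to 5.29% and 4.59% of all probe sets. Fads2 measured 7.41, 7.64 and 7.62 in DT, above the 3 DU arrays at 6.81, 7.00 and 6.97, and the rise was 0.63 ± 0.12 (1.55-fold; adjusted p = 0.0216). The DT mean of Fads2 was 7.55, compared to 7.77 in HU. The call was lost without DU1, DU2, DU3, DT2 or DT3 (adjusted p up to 0.119), while the estimate stayed between 0.57 and 0.70. With scan day as a block the call was also lost (0.71, adjusted p = 0.0579). Within chip lot 1 the difference was 0.62, within chip lot 3 (DT3 and DU3) 0.65, and on the scan day of DT1, DT2 and DU1 it was likewise 0.71.

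The other genes that had fallen in DU measured higher in DT without passing. Fads1 measured 8.73, 8.33 and 8.84 in DT, all above DU, a difference of 0.68 with an adjusted p of 0.0662. Dgat2 measured 8.43, 8.14 and 7.71, also above DU, a difference of 0.78 (adjusted p = 0.0880). DT3 was the lowest DT array for Dgat2, and without it the difference was 0.97 with an adjusted p of 0.0223. With chip lot or scan day as a block the adjusted p was 0.0158 or 0.0325, and within lots the differences were 0.90 in lot 1 and 0.54 in lot 3. Thrsp measured 7.58, 7.65 and 7.72, a difference of 0.75 (adjusted p = 0.247) with arrays that did not overlap. Its other probe sets gave 0.89 without overlap and 0.04 with overlapping arrays. Lcat measured 6.64, 7.25 and 7.87, which overlapped with DU, and differed by 0.69 (interval 0.04 to 1.34; adjusted p = 0.460). Scd measured 7.51, 7.44 and 8.05, overlapping with DU, and differed by 0.37 (adjusted p = 0.501). DT3 was the array that stood apart there, since the difference was 0.15 within lot 1 and 0.81 within lot 3. Scd2 measured 6.88, 7.22 and 7.04 and differed by 0.15 (interval -0.11 to 0.42). Its other probe sets gave -0.13 and 0.08. Fasn measured 8.53, 8.35 and 8.59, all above DU, and differed by 0.42 (adjusted p = 0.580).

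The remaining control steps gave small differences in DT vs. DU. Acaca measured 8.16, 8.21 and 8.36 in DT (-0.12, interval -0.39 to 0.15) and Gpam 6.28, 6.60 and 6.24 (0.03, interval -0.24 to 0.30). Sqle measured 6.04, 6.25 and 6.08 (-0.02, interval -0.22 to 0.19). Srebf1 measured 8.08, 8.10 and 8.26, with all DT arrays above DU and a difference of 0.17 (adjusted p = 0.583). Its other probe set gave 0.07 with overlapping arrays. The branch medians were 0.06 for fatty acids, 0.18 for triglycerides and -0.02 for sterols, compared to 0.00 for all probe sets. Leaving out 1 array moved them from 0.01 (without DU3) to 0.10 (without DU2), from 0.13 to 0.21 and from -0.05 to 0.02. Fdps differed by 0.05 (interval -0.41 to 0.51).

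DT vs. HU showed what separated treated diabetic from untreated healthy animals. Insig1 was the 1 member called, and it was higher in DT. At this threshold 0.756% of all probe sets were higher and 0.561% lower. Insig1 measured 9.13, 8.88 and 8.59 in DT, compared to 8.01, 7.94 and 8.53 in HU, with a narrow gap between DT3 and HU3. The difference was 0.71 ± 0.16 (1.63-fold; adjusted p = 0.0493). The call was lost without HU1, HU2, any of the HT or DU arrays, DT1 or DT2, and it was not made with scan day as a block, where the estimate was 0.07, or with chip lot as a block (0.52, adjusted p = 0.276). Within chip lot 1 DT1 and DT2 lay 0.47 above HU3. Fdps measured 9.79, 9.28 and 9.85 in DT, a difference from HU of 0.83 with an adjusted p of 0.0756. In the sterol branch 13 of 16 genes were above 0 (81.2%), compared to 45.6% of all probe sets, with a median of 0.07, which lay between 0.04 (without DT1) and 0.13 (without DT3) when 1 array was left out. Lcat was 1.31 lower than in HU (adjusted p = 0.0544), and without DT3 or without HU1 its adjusted p was 0.0160 and 0.0336. The 4 fatty acid desaturases among the members lay between -0.33 and -0.04 of HU, with 0 called, and the interval for Fads1 ran from -0.39 to 0.30.

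**Figure D4:**
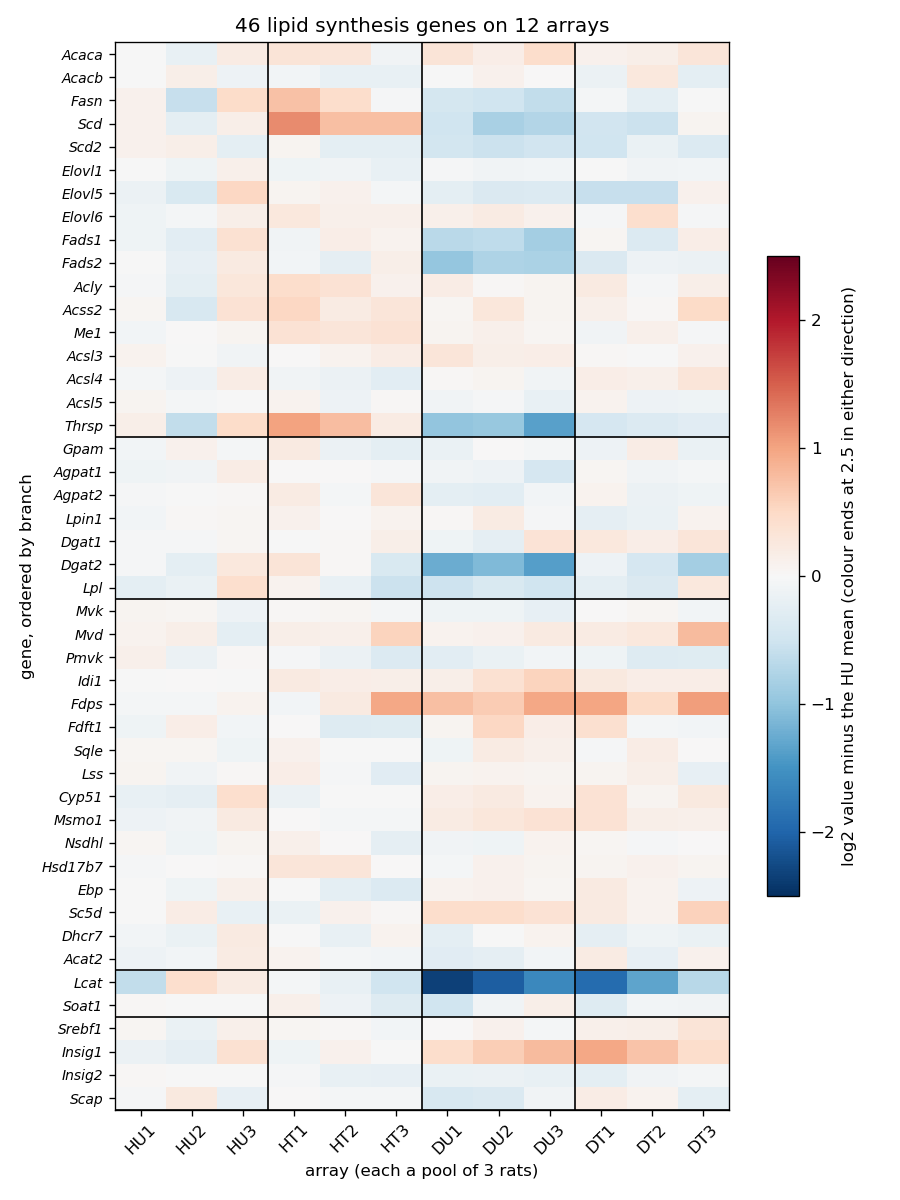
Log2 value minus the HU mean for 46 genes (rows, ordered by branch and separated by lines) on the 12 arrays (columns, separated by group); the colour scale ends at 2.5 in either direction. The deepest blue cells in the DU columns mark Lcat, Dgat2 and Thrsp, and the deepest red cells in the HT columns mark Scd and Thrsp in HT1 and Fdps in HT3.

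HT vs. HU asked what tungstate did without diabetes. None of the 46 members passed in limma, and 0.00630% of all probe sets did. At an unadjusted p under 0.05, 5 members were higher and 0 lower, 10.9% of the members compared to 2.65% of all probe sets that were higher. The median of the fatty acid branch was 0.09, that of the triglyceride branch -0.00 and that of the sterol branch -0.02. The fatty acid median was 0.25 without HU3 and 0.18 without dim probe sets. Scd measured 9.16, 8.73 and 8.73 in HT and 8.08, 7.73 and 8.12 in HU, so that all HT arrays were above all HU arrays. Its difference of 0.90 (interval 0.53 to 1.26; adjusted p = 0.491) was the highest of all 15866 probe sets in this comparison. It was 1.04 within chip lot 2 (HT1 and HT2 compared to HU1 and HU2) and 0.82 on the scan day of HT1, HT2 and HU3. Scd2 measured 7.45, 7.13 and 7.13 in HT and differed by -0.14 (interval -0.41 to 0.12). Thrsp measured 9.01, 8.77 and 8.19 in HT, overlapping with HU, and differed by 0.66 (adjusted p = 0.871). Me1, the malic enzyme that supplies NADPH, differed by 0.34 with arrays that did not overlap (adjusted p = 0.871), and Acly by 0.30 (adjusted p = 0.871). The other probe set of Me1 gave 0.36 with overlapping arrays. Fasn measured 9.31, 9.03 and 8.55 in HT and differed by 0.38 (interval -0.10 to 0.85).

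Fads1 and Fads2 in HT overlapped with HU. Fads2 measured 7.71, 7.55 and 7.92 and Fads1 8.59, 8.84 and 8.76, with differences from HU of -0.04 (interval -0.31 to 0.22) and 0.05 (interval -0.29 to 0.40). Dgat2 measured 8.88, 8.59 and 8.19 (-0.01, interval -0.43 to 0.41), Lcat 8.51, 8.38 and 8.07 (-0.24, interval -0.89 to 0.41) and Insig1 8.06, 8.26 and 8.15 (-0.00, interval -0.35 to 0.34). Of the control steps, Acaca measured 8.38, 8.36 and 7.97, Gpam 6.63, 6.26 and 6.16, Sqle 6.16, 6.05 and 6.05, and Srebf1 8.00, 7.96 and 7.88 in HT, and their differences from HU lay within intervals that included 0. Whether tungstate acted differently in diabetic and healthy animals was tested by the interaction, the difference between the effect of tungstate in diabetic and in healthy animals. None of the members passed it in limma, compared to 0.422% of all probe sets, and at an unadjusted p under 0.05 5 were higher and 4 lower (10.9% and 8.70%, compared to 4.97% and 3.78% of all probe sets). The lowest adjusted p was that of Fads2 (0.67, interval 0.30 to 1.05; adjusted p = 0.183). The interaction was -0.53 for Scd (adjusted p = 0.559), 0.79 for Dgat2 (adjusted p = 0.385) and 0.09 for Thrsp (adjusted p = 0.965).

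A wider list of the pathway, with NADPH supply, lipid transport, SREBP processing and nuclear receptors, held 47 measured genes of 69. In DU vs. HU 2 of the 47 fell and 0 rose, where 1.73% of all probe sets fell and 1.47% rose. At an unadjusted p under 0.05 6 of the 47 were higher and 9 lower, where 8.75% of all probe sets were higher and 11.5% lower. Pgd, the phosphogluconate dehydrogenase that supplies NADPH, fell by 0.44 (adjusted p = 0.0399). Mbtps1, the protease that makes the opening cut in the SREBPs, fell by 0.40 (adjusted p = 0.0418). In DT vs. DU and HT vs. HU 0 of the 47 passed in limma. At an unadjusted p under 0.05 5 were higher and 2 lower in DT vs. DU, where 5.29% of all probe sets were higher and 4.59% lower. In HT vs. HU 1 was higher and 1 lower, where 2.65% of all probe sets were higher and 2.77% lower. In DT vs. HU Lpin3, a phosphatidate phosphatase, was higher by 0.48 (adjusted p = 0.0322), and it was the 1 gene of the list to pass. There 8 of the 47 were higher and 4 lower at an unadjusted p under 0.05, where 7.97% of all probe sets were higher and 8.6% lower. Srebf2, the gene of SREBP-2, differed by 0.08 in DU vs. HU (interval -0.12 to 0.28).

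Of the cell type markers, those of beta, erythroid, endothelial and acinar cells had lower sums in every DU array than in any HU array, and those of the other endocrine cells had higher sums. A sum can be moved by 1 bright gene. The median log2 difference in DU vs. HU was 0.007 for acinar and -0.002 for other endocrine markers. A median near 0 shows that higher and lower genes of a list balanced, and not that its genes were unchanged. The median was -2.00 for beta, -0.38 for erythroid and -0.12 for endothelial markers. Acinar markers summed, as unlogged intensities over 16 genes, to between 240400 and 243700 in HU and between 229800 and 237100 in DU arrays. Of these 16, Amy2a3 (pancreatic amylase) fell by 5.18 and Prss2 rose by 0.45 in DU. Fat cells make many of the members, and 0 of 12 adipocyte markers were called by limma in any comparison. In DU vs. HU 0 were higher and 1 lower at an unadjusted p under 0.05, compared to 8.75% and 11.5% of all probe sets. The sum of the adipocyte markers lay between 1782 and 2605 in HU, 1721 and 2283 in HT, 1848 and 2170 in DU and 1691 and 2120 in DT. Plin1 measured 5.11 to 5.23 and Lep 6.51 to 6.60 in HU, and Fabp4 and Cfd differed by -0.27 and -0.24 in DU vs. HU with adjusted p-values of 0.695 and 0.702. HU2 was the lowest HU array for Fabp4 (6.83) and Cfd (8.05), as it was for Scd, Thrsp, Fads1, Fads2, Fasn and Dgat2. It was the highest HU array for Plin1 (5.23) and Lep (6.60), and for the members Lcat (8.98) and Scd2 (7.52). Beta cell markers fell in 4 of 6 measured genes (Ins1, Ins2, Iapp and Slc2a2), and their sum went from between 24850 and 27100 in HU to between 2374 and 3170 in DU and between 3484 and 8674 in DT. Erythroid markers summed to between 2982 and 5294 in HU and between 1658 and 2140 in DU, and Hbb fell by 1.19 (adjusted p = 0.0364). Endothelial markers summed to between 1072 and 1224 in HU and between 1010 and 1042 in DU, with 0 of 7 genes called by limma (0 higher and 1 lower at an unadjusted p under 0.05). The other endocrine markers summed to between 1949 and 2308 in HU and between 2330 and 2775 in DU, where Sst, the somatostatin gene, rose by 1.32 (adjusted p = 0.0217) and Pcsk2, a prohormone convertase, fell by 0.80 (adjusted p = 0.00122). The part of these cell types in the falls of Fads2, Dgat2, Lcat and the other members was not tested. Stellate and fibroblast markers were lower in DT than in HU in 3 of 14 genes (Col1a2, Col3a1 and Postn), and their part in the difference of Insig1 was not tested.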

How the data were processed

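Total RNA of whole pancreas was hybridized to 12 Affymetrix RAE230-A arrays, 3 per group, and groups were taken from the sample titles. The deposited values are log2 intensities that the authors made by RMA (which corrects background, equalizes the distributions of the arrays and combines the probes of a set), and they were used as deposited. The file held 15923 probe sets. After removal of 57 controls 15866 remained, 12783 with a single gene symbol, 312 with more and 2771 without. Members were matched by symbol, and the brightest probe set of each gene was used. A mean per group was fitted with limma 3.58.1 in R 4.3.3, with Benjamini-Hochberg adjustment over all 15866 probe sets in each of 5 contrasts. The fit was tested on simulated data. Chip lot and scan day came from the deposited array records. Alternatives were other normalizations, filters, probe set rules, blocks, a B-statistic above 0 (prior 0.01) and leaving out each array in turn. Per-array values are given for every member called in any contrast and for Acaca, Fasn, Scd, Dgat2, Gpam, Sqle, Srebf1 and Insig1, and Fdps was added after its values were seen. The members and gene lists were chosen with earlier results of these data known. Array medians ran from 6.63 to 6.70. Precision is set by the 3 arrays per group.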

Additional observations from a re-analysis of the deposited data

How the results depend on the processing

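Counts of members called moved with several settings. In DU vs. HU, 7 members were called, 0 with scan day as a block, 4 with chip lot as a block and 3 by a B-statistic above 0. Leaving out 1 array gave 3 to 9 (3 without HU1, DU2 or DU3, 4 without DU1). In DT vs. DU, 1 was called, and 2 with quantile normalization, without dim probe sets, with only the groups compared, with trend and robust, or with chip lot as a block. Leaving out 1 array gave 0 to 2 (0 without DU1, DU2 or DU3, 2 without HU3). In DT vs. HU, 1 was called, 0 with median centring, only the groups compared, scan day or chip lot as a block, or a B-statistic above 0, and 2 without dim probe sets. Leaving out 1 array gave 0 to 2 (2 without DT3, 0 without HU2, HT1, HT2, DT1, DT2 or any DU array). With chip lots 1 and 2 only, a setting chosen after seeing the data, 3 members were called there (Fdps, Lcat and Insig1), while DU vs. HU gave 6 and DT vs. DU gave 1, now Dgat2. The median of the fatty acid branch in DU vs. HU was -0.26 with the probe set of largest variance. Scd in DU vs. HU was 0.15 with scan day as a block, the 1 call that turned, and Insig1 there was -0.33. Of the comparisons of a branch median under another setting with its main value, 251 moved by less than the spread between arrays and 1 did not. This spread, the SD of the branch's median value within groups, can be larger than the branch difference itself. The count therefore does not show that the medians held. In HT vs. HU and in the interaction, 0 members were called under any setting.

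Replicate numbers did not pair the arrays: same-numbered arrays correlated between -0.29 and 0.31 in their deviations, 5 of 18 pairs over 0.1. With the replicate block 8 members were called in DU vs. HU (Fdps added), 1 in DT vs. DU and 2 in DT vs. HU (Fdps and Lcat, not Insig1). The number of arrays, 3 per group, sets the width of the intervals given. For comparisons that Fasn, Fdps, Insig1, Dgat2 or Lcat did not pass, the left-out arrays named are those that brought the adjusted p under 0.05. The cause of each change between settings was not tested.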
